A study of Mus musculus with 4 samples.

Results

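Genes of the p53 pathway and of cell cycle arrest were described in cortex from male SAMR1 mice, the normally ageing control line of the senescence-accelerated mouse strains. The set was given as 10 genes by symbol: Cdkn1a, Mdm2, Trp53i11, Trp53, Ccng1, Trp53inp1, Bax, Phlda3, Cdkn2a and Cdkn1b. The brightest transcript cluster of each symbol was taken, and 8 of the 10 were found among 19572 transcript clusters that carry a gene symbol. Trp53 and Bax were not found under those names and were not analysed here. The set was drawn up with differences between TCQA and water on these arrays already known, among them those of Cdkn1a and Trp53i11, so its members were chosen by, among other things, their measured TCQA and water levels. The differences of the members are given as a description, without a test.

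All mice had been kept in individual cages for 4 months from an age of 7 months. The TCQA group then received TCQA (tricaffeoylquinic acid, a plant polyphenol) at 5 mg/kg by mouth every day for 1 month from an age of 11 months, and the water group received MilliQ water instead. Each group had 2 Clariom S mouse arrays, 4 in all, and the labels do not say whether an array held RNA of 1 mouse or of several. A p-value here covers the spread among the 4 samples alone, and that spread may be technical. An exact permutation test of 2 against 2 arrays cannot go below 0.333 (2-sided).

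The p53 protein, encoded by Trp53, is a transcription factor that is stabilised by DNA damage and other stress and switches on genes for cell cycle arrest, DNA repair and cell death. One of its targets, Mdm2, encodes the ubiquitin ligase that marks p53 for degradation, which closes a feedback loop. Another, Cdkn1a, encodes p21, an inhibitor of cyclin-dependent kinases (CDKs) that can hold cells before DNA replication. In brain cortex most neurons have left the cell cycle, and p21 is also induced there by signals other than p53, glucocorticoids among them.

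The promoters of the members were searched for the p53 half-site consensus, since p53 binds its targets through pairs of such half-sites. RefSeq windows of 300 bases (250 before and 50 after a start, build GRCm38.p6) were found for 9 of the 10 members, 11 windows in all, because Cdkn1a and Cdkn2a each have more than 1 start. A half-site lay in 5 of the 11 windows, those of Cdkn1a, Mdm2, Ccng1, Trp53 and Bax, while 8.36% of all 32851 promoter windows held it. The consensus reads the same on both strands. The 250 bases before the upstream start of Cdkn1a (chr17:29090729-29090978, plus strand) are shown because they hold 2 half-sites, and because the second overlaps a pair of CATG cores spaced as CATGNNNNNNCATG. That spaced motif, which was chosen after the window had been read and also reads the same on both strands, lay in 0.712% of all windows and in the windows of 1 member, Cdkn1a. Stretches of 60 bases around the half-site are shown for Mdm2 (chr10:117710910-117710969, minus strand) and Ccng1 (chr11:40755437-40755496, minus strand). Capitals mark the half-sites and, in Cdkn1a, the spaced motif joined to the second of them.
Cdkn1a: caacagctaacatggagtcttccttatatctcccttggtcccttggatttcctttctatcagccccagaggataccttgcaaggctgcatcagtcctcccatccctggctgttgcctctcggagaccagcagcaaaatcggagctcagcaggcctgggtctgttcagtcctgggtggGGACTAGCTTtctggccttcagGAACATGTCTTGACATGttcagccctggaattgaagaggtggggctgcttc
Mdm2: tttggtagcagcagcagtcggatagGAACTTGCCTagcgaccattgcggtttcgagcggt
Ccng1: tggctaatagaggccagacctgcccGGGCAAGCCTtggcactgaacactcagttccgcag

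The downstream window of Cdkn1a and the windows of Trp53i11, Phlda3, Cdkn2a and Cdkn1b held no half-site. Trp53i11, which had the second largest difference between the groups among the members, is thus without these letters in its window, and Cdkn1a, which had the largest, has them at 1 of its 2 starts. A match is a description of the letters, and binding was not measured.

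Values are log2 signals per transcript cluster as the authors normalised them, so a difference of 1 is a 2-fold change. Array medians lay between 6.98 and 7.04, and pairs of arrays correlated across genes between 0.990 and 0.993. The 5222 negative control probe sets had a median of 6.98 and a 95th percentile of 11.06, which serve here as marks of background. Both group means lay above that 95th percentile for 3 members (Mdm2, Trp53i11 and Ccng1), between the 2 marks for 3 (Cdkn1a, Trp53inp1 and Cdkn1b) and below the median for 2 (Phlda3 and Cdkn2a). The cortical neuron marker Slc17a7 lay between 15.98 and 16.34 on the 4 arrays. Water 1 and TCQA 2 stood apart from the rest in markers of neighbouring regions, as given below, and the difference of each member is therefore also given without single arrays where it moves by over 1.5 times. For genes of the pathway lists described further on, such values are given for those with an unadjusted p under 0.05, and other listed differences can move as much.

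Of the 8 measured members 6 were higher and 2 lower in TCQA than in water, with a median difference of 0.56, while the median over all genes tested was 0.0028 and 50.5% of them were higher. For 5 members both TCQA arrays lay above both water arrays, as they did for 19.9% of all genes tested. For 1 member, Cdkn2a, both lay below, as for 19.2% of all genes, so that groups did not overlap in either direction for 39.2% of genes. For Cdkn1b and Phlda3 the groups overlapped. Since the set was chosen with this contrast known, nothing is read from these shares. By limma with Benjamini-Hochberg adjustment 0 of 19572 transcript clusters were called (0% of those tested), against 1443 at an unadjusted p under 0.05 (7.37%, of which 3.48% higher and 3.89% lower in TCQA) and 130 by the study's own rule, an unadjusted p under 0.05 with over 2-fold (0.664%). In tissue RNA of this kind, fewer cells of a type and less RNA per cell cannot be told apart.

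**Figure D1:**
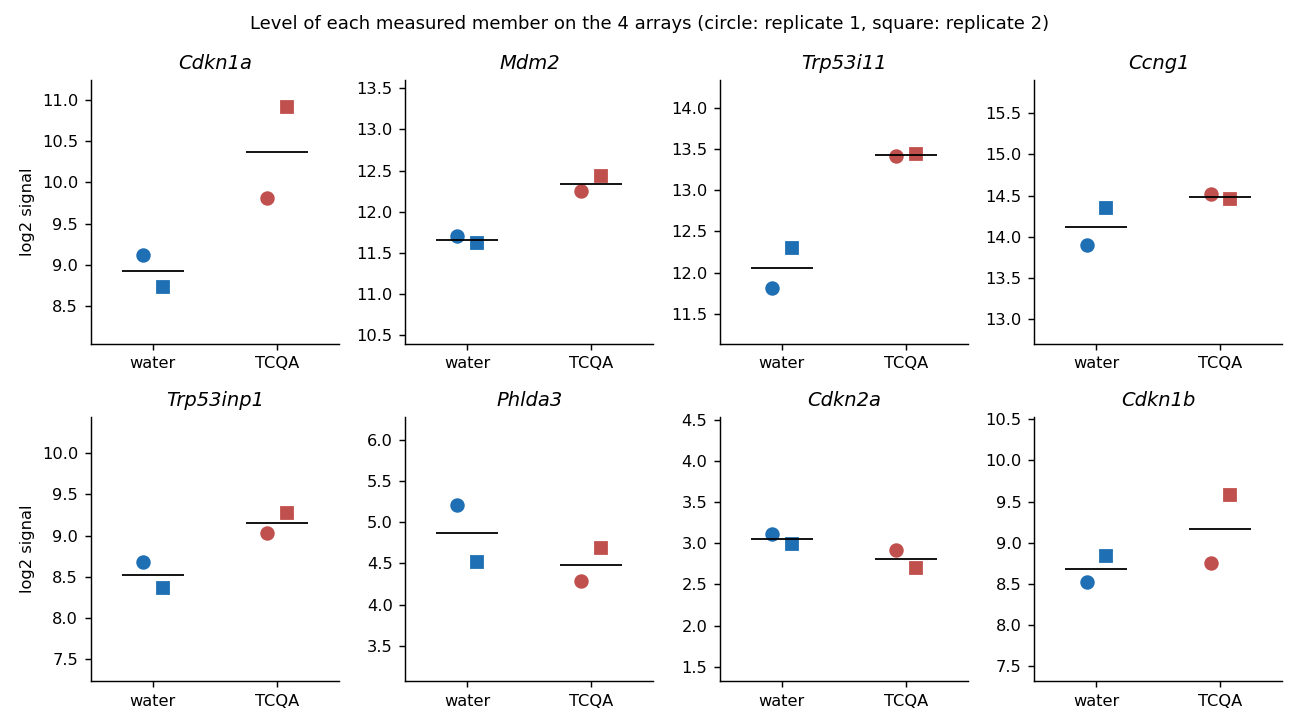
Log2 signal (vertical axis, a span of equal size in every panel) of the 8 measured members on the water arrays (blue) and TCQA arrays (red), with circles for replicate 1, squares for replicate 2 and a line at each group's mean. Cdkn1a, Mdm2, Trp53i11, Ccng1 and Trp53inp1 have both TCQA arrays above both water arrays, and the TCQA arrays of Cdkn1a and Cdkn1b lie far apart.

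Among the inhibitors of the cell cycle, Cdkn1a stood highest above the water level. Its log2 level was 9.81 in TCQA 1 and 10.91 in TCQA 2, and the water arrays stood at 9.12 (water 1) and 8.73 (water 2). Both TCQA arrays were thus above both water arrays, but they differed from each other by 1.09, a gap larger than that of 98.6% of all genes between these arrays. The group means were 10.36 ± 0.77 and 8.93 ± 0.27 (SD, n = 2 each), a difference of 1.44 (SE 0.37) or 2.71-fold. Without TCQA 2 the difference was 0.89, and without TCQA 1 it was 1.98. The direction held in all 4 sets of 3 arrays.

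Cdkn1b encodes p27, the relative of p21 that restrains cyclin-CDK complexes in resting cells. It lay at 8.75 in TCQA 1, 9.58 in TCQA 2, 8.52 in water 1 and 8.84 in water 2. The groups overlapped, because TCQA 1 was below water 2, and TCQA 2 alone stood above the rest. The difference was 0.49 (SE 0.31), and it was 0.07 without TCQA 2 and 0.90 without TCQA 1. TCQA 2 was thus the highest array for both Cdkn1a and Cdkn1b, which are among 5 of the 8 measured members with that trait. The set was chosen with this contrast known, so nothing is read from that count.

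Cdkn2a encodes the CDK inhibitor p16 and, from another first exon, the Mdm2 inhibitor p19Arf, which a single transcript cluster does not separate, and its rise is a common mark of senescent cells. Its levels were 2.91 in TCQA 1, 2.70 in TCQA 2, 3.11 in water 1 and 2.99 in water 2. All 4 values lay far below the negative control median, and the mean ranked at the 0.833 percentile of all genes, so that a level above background was not measured in either group. Its difference was -0.24 (SE 0.20), and -0.14 without TCQA 2.

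In the feedback arm, Mdm2 lay at 12.25 in TCQA 1 and 12.43 in TCQA 2, while water 1 stood at 11.70 and water 2 at 11.62. The gap between the groups, 0.55 between the nearest arrays, was larger than the spread within either group (0.18 in TCQA and 0.08 in water). The difference was 0.68 (SE 0.19), or 1.60-fold, and lay between 0.59 and 0.77 when single arrays were left out.

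Ccng1, which encodes the p53-induced cyclin G1 that acts with Mdm2, lay at 14.52 in TCQA 1, 14.46 in TCQA 2, 13.90 in water 1 and 14.35 in water 2. Both TCQA arrays lay above both water arrays, by 0.11 at the nearest, while the water arrays differed by 0.45. The difference of 0.36 (SE 0.22) was 0.14 without water 1 and 0.59 without water 2.

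Trp53i11, named for its induction by p53 and less well understood in function, showed the tightest pair of TCQA arrays. It lay at 13.41 in TCQA 1 and 13.43 in TCQA 2, while water 1 stood at 11.82 and water 2 at 12.30. The TCQA arrays differed by 0.02 and the water arrays by 0.48, while 1.11 separated the nearest arrays of the 2 groups. The difference was 1.36 (SE 0.23), or 2.58-fold, and stayed between 1.12 and 1.61 with any single array left out. Unlike Cdkn1a, its level in TCQA 1 was as high as in TCQA 2.

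Trp53inp1, a stress-induced nuclear protein that promotes p53 activity and autophagy, lay at 9.03 in TCQA 1, 9.27 in TCQA 2, 8.68 in water 1 and 8.37 in water 2. The groups did not overlap, and 0.34 separated their nearest arrays. The difference was 0.62 (SE 0.21), or 1.54-fold, between 0.47 and 0.78 when single arrays were left out.

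Phlda3, a p53 target that restrains the kinase Akt, was the other member with a negative difference. It lay at 4.29 in TCQA 1, 4.69 in TCQA 2, 5.21 in water 1 and 4.52 in water 2, below the negative control median throughout. The groups overlapped, and its difference of -0.38 (SE 0.29) was -0.03 without water 1, -0.72 without water 2, -0.18 without TCQA 1 and -0.58 without TCQA 2. For Phlda3 and Cdkn2a the direction is therefore of signals at background.

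**Figure D2:**
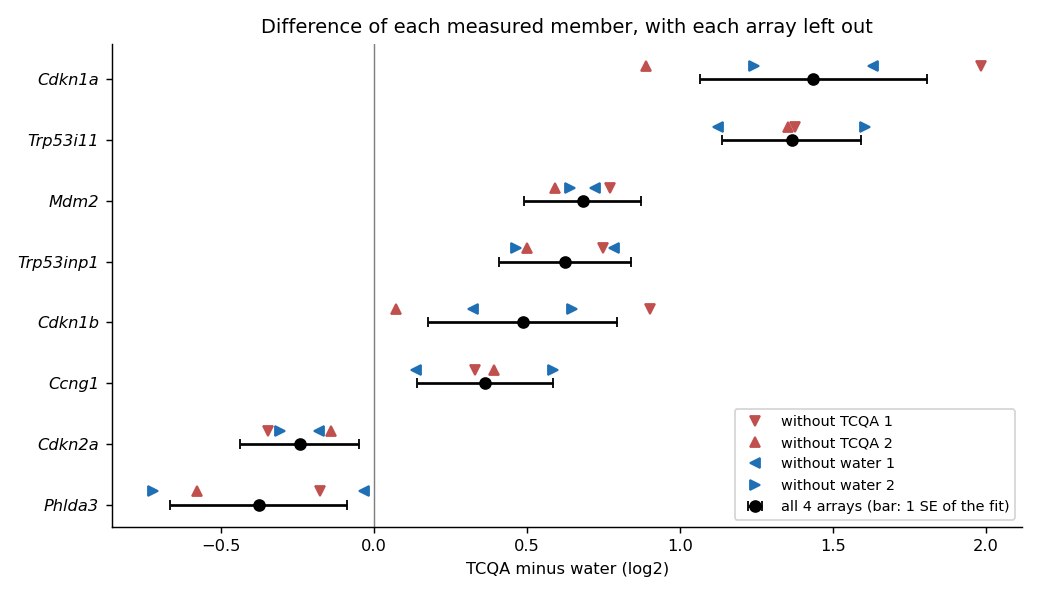
Difference between TCQA and water on the log2 scale (horizontal axis) for each measured member, with all 4 arrays (black, bars of 1 SE of the fit) and with each array left out in turn (triangles). Trp53i11 (1.12 to 1.61) and Mdm2 (0.59 to 0.77) move little, whereas Cdkn1a runs from 0.89 without TCQA 2 to 1.98 without TCQA 1.

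The genes whose levels over the 4 arrays were most like those of Cdkn1a and of Trp53i11 were sought among the 10004 genes with a brighter group not dimmer than the median signal, by Euclidean distance of log2 values centred on the mean of the 4 arrays. Nearest to Cdkn1a were Ms4a15 (distance 0.43), a membrane protein gene, Lrtm2 (0.56), Syngr3 (0.58), which encodes a synaptic vesicle protein, Pgap1 (0.59), an enzyme of lipid anchor processing, and Rab2b (0.60), a GTPase of vesicle traffic. Each of these 5 was highest in TCQA 2, as Cdkn1a was, which follows largely from the choice by likeness. Nearest to Trp53i11 were the secreted Wnt antagonist Sfrp1 (0.18), the p38 kinase gene Mapk11 (0.28), Napepld (0.30), which encodes an enzyme of anandamide synthesis, the transcriptional repressor Prdm8 (0.35) and the centromere chaperone gene Hjurp (0.39). These 5 were lowest in water 1, as Trp53i11 was, for the same reason. The water means of Ms4a15, Sfrp1 and Hjurp lay below the negative control median. None of these 10 is a member, and 4 arrays allow many genes to be alike.

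**Figure D3:**
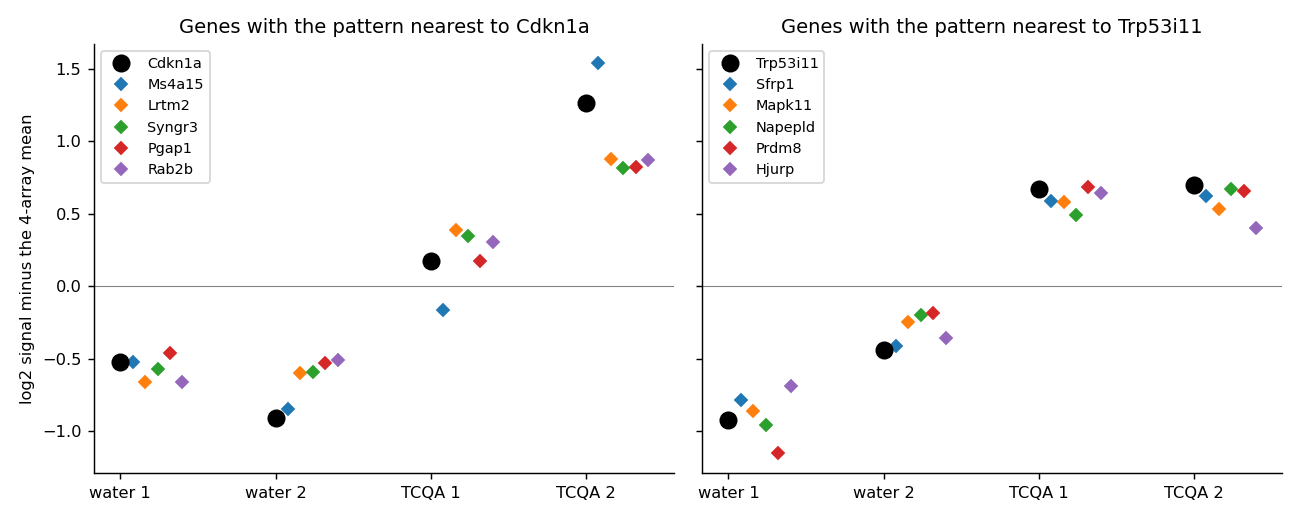
Log2 signal minus the mean of the 4 arrays (vertical axis) by array, for Cdkn1a (left) and Trp53i11 (right) in black and for the 5 genes nearest to each in colour. The Cdkn1a panel climbs from TCQA 1 to TCQA 2, and the Trp53i11 panel has the TCQA arrays level and water 1 lowest. The coloured genes were chosen for their likeness to these patterns.

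Other genes of the pathway were taken from lists of textbook members, described here by counts and medians beside those of all genes. The lists were written with earlier results of these data known, so their counts and shares are a description and give no test. The 70 other p53 target genes that were measured, of 76 listed, were higher in TCQA for 41 and lower for 29, with a median difference of 0.05 against 0.0028 over all genes. An unadjusted p under 0.05 in limma was reached by 3 higher and 3 lower targets, 8.57% of the 70, against 7.37% of all genes. None of the 70 reached the study's rule, and 0 passed after adjustment. The share of called targets was thus near the background. Leaving out arrays changed these counts to 4 higher and 1 lower without TCQA 1, to 1 and 3 without TCQA 2, to 5 and 0 without water 1 and to 2 and 2 without water 2.

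Of the cell cycle arrest targets 8 of 14 were higher (median 0.19) and 0 reached an unadjusted p under 0.05. Smallest in p were the antiproliferative genes Btg1 (0.71, SE 0.31) and Btg2 (0.43), with Gtse1 (0.42), a p53 regulator of the G2 phase, and Psrc1 (0.32), a spindle protein. Btg2, Gtse1 and Psrc1 lay below the negative control median in both groups. Btg1 lay at 8.82 in TCQA 1, 9.42 in TCQA 2, 8.74 in water 1 and 8.09 in water 2, and its difference was 0.41 without TCQA 2 and 0.38 without water 2.

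Of the cell death targets 14 of 18 were higher (median 0.06), but only 5 of the 18 had a mean above the negative control median. An unadjusted p under 0.05 in limma was reached by 3 higher and 1 lower (22.2%, against 7.37% of all genes). The higher ones were Bbc3, which encodes the BH3-only killer protein Puma, by 0.59 (SE 0.19), the inflammatory caspase gene Casp1 by 0.79 (SE 0.31) and Bcl2l14 by 0.55. The lower one was Zmat3, a zinc finger gene that p53 induces, by -0.68 (SE 0.25). Bbc3 lay at 6.66 and 6.50 in TCQA and at 6.07 and 5.90 in water, below the negative control median, as did Bcl2l14 (4.77 and 4.23 as group means). The water mean of Casp1, 6.89, also lay below that median. Zmat3 lay at 8.84 and 9.42 in TCQA and at 9.71 and 9.91 in water, opposite in direction to Cdkn1a and Mdm2.

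DNA repair targets were higher for 4 of 9 (median -0.02), with Pcna, the sliding clamp of replication, at 0.42, the ribonucleotide reductase subunit gene Rrm2b at 0.25, Ddb2 at -0.24 and Rps27l at -0.30. Metabolic and autophagy targets were higher for 9 of 15 (median 0.04), with the stress sensor gene Sesn2 at 0.45, Dram2 at 0.42, Abhd4 at 0.39 and Dcxr at -0.42. Neither list had a gene with an unadjusted p under 0.05, and Sesn2 lay below the negative control median in both groups. Among the remaining targets 6 of 14 were higher (median -0.06), and the repair methyltransferase gene Mgmt (-0.57) and the semaphorin receptor gene Plxnb2 (-0.57) were lower with an unadjusted p under 0.05, beside Pltp (0.50) and Pml (-0.24).

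**Figure D4:**
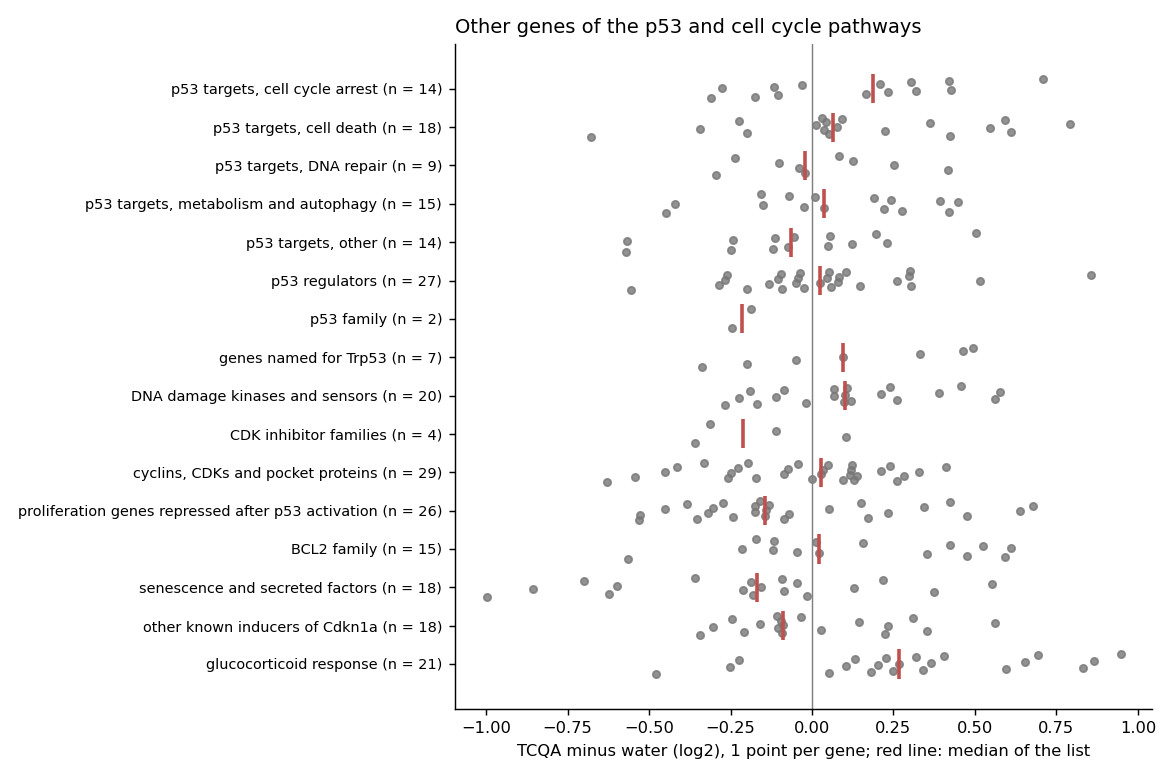
Difference between TCQA and water on the log2 scale (horizontal axis) for every measured gene of 16 pathway lists, 1 point per gene, with a red line at the median of each list and its number of genes in the label. Points of most lists lie on both sides of 0. Above it lie 18 of 21 glucocorticoid response genes and 14 of 18 cell death targets, and below it 14 of 18 senescence and secreted factor genes. In each of the latter 2 lists only 5 genes had a mean above the negative control median.

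Regulators of p53 were higher for 14 of 27 (median 0.02). The death domain adaptor gene Daxx, whose product binds Mdm2, was higher by 0.86 (SE 0.19) and lay at 6.60 and 6.75 in TCQA against 5.81 and 5.83 in water, all below the negative control median. Hipk2, a kinase that phosphorylates p53, was lower by -0.56 (SE 0.23), the p53 phosphatase gene Ppm1d was at 0.51 and the methyltransferase gene Setd7 at 0.30. The p53 relatives Trp63 (-0.19) and Trp73 (-0.24) lay below the negative control median in both groups, and neither kept its size: Trp63 was at 0.19 without TCQA 1 and 0.02 without water 1, and Trp73 at -0.03 without TCQA 2. Of 7 measured genes named for Trp53, 4 were higher, among them Trp53inp2 (0.49, SE 0.20), the autophagy-linked relative of Trp53inp1, which lay at 10.96 and 10.98 in TCQA and 10.63 and 10.32 in water. The others with the smallest p were Trp53rka (0.46), Trp53tg5 (-0.34) and Trp53i13 (0.33), of which Trp53tg5 lay below the negative control median in both groups.

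Sensors and kinases of DNA damage were higher for 13 of 20 (median 0.10), with the DNA end-binding gene Xrcc6 higher by 0.56 (SE 0.23) at an unadjusted p under 0.05. The checkpoint gene Hus1 (0.58), the CDK-inhibiting kinase gene Wee1 (0.46) and the damage kinase gene Atm (0.39) came next. Of the other CDK inhibitors, Cdkn1c, which encodes p57, was at -0.31, Cdkn2b at -0.36, Cdkn2d at -0.11 and Cdkn2c at 0.10, none with an unadjusted p under 0.05. The positive differences of Cdkn1a and Cdkn1b were therefore not matched by Cdkn1c, the remaining gene of their family, at 6.14 and 6.24 in TCQA against 6.49 and 6.51 in water, below the negative control median.

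Cyclins, CDKs and pocket proteins were higher for 16 of 29 (median 0.03), and Cdk2, a kinase that p21 inhibits, was lower by -0.45 (SE 0.18) at levels below the negative control median. E2f7 (0.41), Ccna2 (-0.54) and Ccnd3 (0.33) did not reach an unadjusted p under 0.05. Proliferation genes that fall after p53 activation in dividing cells were lower for 17 of 26 (median -0.14), but those with an unadjusted p under 0.05 were both higher, Cdc20 by 0.68 (SE 0.20) and Tyms by 0.47 (SE 0.19), beside Tpx2 (0.64) and Bub1b (-0.45). The list's mean was 4.97 on the lowest array and 5.05 on the highest, under the negative control median. Only 2 of its genes, Tyms and Cenpa (-0.09), lay above that median, so its direction is of signals at background. 

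In the BCL2 family, which shares Bbc3, Bid and Pmaip1 with the cell death targets, 9 of 15 were higher (median 0.02). The survival gene Mcl1 was higher by 0.47 (SE 0.19), Bik, a killer protein gene, was lower by -0.56 (SE 0.20), and the survival gene Bcl2 was at 0.52. Senescence and secreted factor genes were lower for 14 of 18 (median -0.17), but only 5 of the 18 had a mean above the negative control median. With genes dimmer than that in both groups left out, the list's median was -0.05. The cytokine genes Il1a (-0.999, SE 0.18) and Il1b (-0.62, SE 0.23) were lower and Mmp3 (0.55, SE 0.19) higher at an unadjusted p under 0.05, beside Mmp12 (-0.70), and all 4 lay below the negative control median in both groups. Among other known inducers of Cdkn1a 7 of 18 were higher (median -0.09). Foxo3, a transcription factor that can switch on Cdkn1a, was higher by 0.56 (SE 0.20), while Smad2 (0.31), Smad4 (-0.34) and the glucocorticoid receptor gene Nr3c1 (-0.31) did not reach an unadjusted p under 0.05.

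Glucocorticoid response genes, Cdkn1a being a known target of the receptor, were higher for 18 of 21 (median 0.27). This list too was written with earlier results of these data known, so its share gives no test. An unadjusted p under 0.05 in limma was reached by 5 higher and 0 lower genes (23.8%, against 7.37% of all genes). Those counts were 5 and 0 without TCQA 1, 1 and 0 without TCQA 2, 3 and 0 without water 1 and 2 and 1 without water 2, and TCQA 2 was the highest array for 12 of the 21. Fkbp5, the receptor's cochaperone, lay at 12.71 in TCQA 1 and 13.17 in TCQA 2 and at 12.23 and 11.75 in water, a difference of 0.95 (SE 0.26). The receptor's part in the level of Cdkn1a was not tested. Hif3a was higher by 0.83, Pdk4, which restrains glucose oxidation, by 0.69, Tsc22d3, an anti-inflammatory leucine zipper gene, by 0.65 and Sult1a1 by 0.59. The 3 lower genes of the list were Sgk1 (-0.48), Lcn2 (-0.25) and Mt1 (-0.22).

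Over the 16 pathway lists 24 of 251 distinct genes had an unadjusted p under 0.05 (9.56%, against 7.37% of all genes), 16 higher and 8 lower, and 0 passed after adjustment by limma or reached the study's rule. Daxx and Il1a, 2 of the 24, kept it with each array left out in turn, and 9 of the 24, these included, had both group means below the negative control median. Bbc3, Bcl2l14, Foxo3, Hipk2, Il1b, Mgmt, Mmp3, Plxnb2, Sult1a1, Trp53inp2, Xrcc6 and Zmat3 lost it without TCQA 1. Bcl2l14, Bik, Casp1, Cdc20, Fkbp5, Foxo3, Hif3a, Hipk2, Il1b, Pdk4, Trp53inp2 and Tsc22d3 lost it without TCQA 2. Bik, Casp1, Hif3a, Hipk2, Il1b, Mgmt, Mmp3, Plxnb2, Sult1a1, Tsc22d3, Xrcc6 and Zmat3 lost it without water 1. Bbc3, Bcl2l14, Bik, Cdc20, Fkbp5, Foxo3, Mgmt, Mmp3, Sult1a1, Trp53inp2, Tsc22d3 and Zmat3 lost it without water 2. Cdk2, Mcl1 and Tyms lost it whichever array was left out. Values moved by over 1.5 times for Zmat3 (-0.39) and Mgmt (-0.32) without TCQA 1, for Hif3a (0.48) without TCQA 2, for Casp1 (0.38), Hipk2 (-0.31) and Il1b (-0.38) without water 1, and for Casp1 (1.20) without water 2.

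Some markers of other tissue were highest in TCQA 2, as were Cdkn1a and Cdkn1b. Mdm2, Trp53inp1 and Trp53i11 were also highest in TCQA 2, by smaller margins over TCQA 1. Olfactory bulb markers were highest in TCQA 2 for 8 of 10 genes, with a list mean of 8.51 there, while TCQA 1 stood at 6.85, water 1 at 7.10 and water 2 at 6.94. Neuroblast markers were highest in TCQA 2 for 6 of 7, with a mean of 8.05 against 7.12, 7.25 and 7.03. Without TCQA 2 the medians of these lists between the groups were -0.06 and -0.03, while Cdkn1a was at 0.89, Cdkn1b at 0.07, Mdm2 at 0.59, Trp53inp1 at 0.50 and Trp53i11 at 1.35. Calb2 is held by the olfactory bulb and inhibitory neuron lists, and Tbr1 by the olfactory bulb and excitatory neuron lists. A mean above the negative control median was found for 5 of the 10 olfactory bulb and 4 of the 7 neuroblast markers. The part of other tissue in the differences of Cdkn1a, Cdkn1b and the other members was not tested beyond these values.

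Striatal markers were highest in water 1 for 13 of 13 genes (means of 12.51 there, 11.30 in water 2, 11.54 in TCQA 1 and 10.98 in TCQA 2), and excitatory neuron markers were highest there for 0 of 11 (11.56, against 12.32 in water 2, 12.39 in TCQA 1 and 12.32 in TCQA 2). Trp53i11, Ccng1 and Cdkn1b were lowest in that array. Without water 1 their differences were 1.12, 0.14 and 0.32, and the medians of the striatal and excitatory lists were -0.04 each. Markers of myelinating oligodendrocytes were also highest in water 1, for 10 of 12 genes, with a list mean of 11.74 there against 11.23 in water 2, 11.17 in TCQA 1 and 11.14 in TCQA 2. Their median difference was -0.32, and -0.16 without water 1. Of the markers of choroid plexus and ependyma 11 of 12 were lower in TCQA, and 6 of the 12 had a mean above the negative control median. An unadjusted p under 0.05 in limma was reached by 8 lower genes and the study's rule by 6, against 3.89% and 0.419% of all genes. List means were 7.27 and 6.62 in TCQA against 8.48 and 7.91 in water, and water 1 was highest for 10 of the 12. The list's median difference was -0.99, and it was -0.67 without water 1 and -1.44 without water 2. Endothelial markers were higher for 9 of 11 (median 0.24), with means of 9.62 on both TCQA arrays against 9.38 and 9.44. The part of these tissues in the members' differences was not tested.

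**Figure D5:**
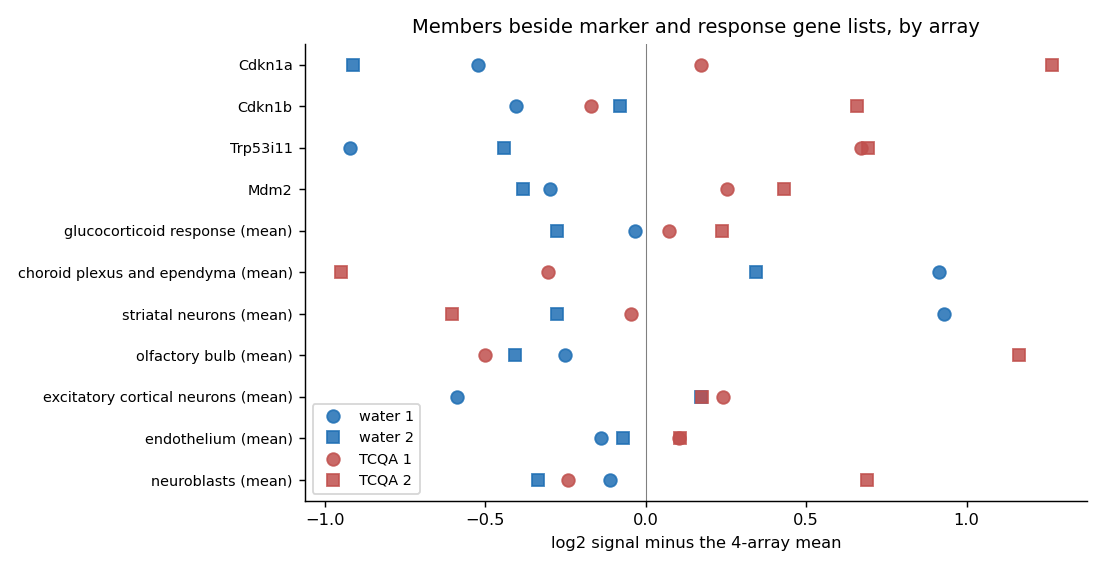
Log2 signal minus the mean of the 4 arrays (horizontal axis) for 4 members and for the mean of 7 gene lists (rows), with water arrays in blue, TCQA arrays in red, circles for replicate 1 and squares for replicate 2. Cdkn1a, Cdkn1b, Mdm2, olfactory bulb, neuroblast and glucocorticoid response rows have TCQA 2 at the right end. The TCQA arrays of the Trp53i11 and endothelium rows lie side by side.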

How the data were processed

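RNA of 4 cortex samples was hybridised to Clariom S mouse arrays. The deposited log2 signals were made by the authors with signal space transformation RMA (SST-RMA, Transcriptome Analysis Console 4.0.2), as the series' design text states per the labels, so they carry no depth per array. No genome build is given in those sources. Gene symbols came from the platform annotation, which names 19572 of 28846 rows. The brightest row stood for a symbol. Groups came from the sample titles. All named rows were fitted with limma 3.58.1 in R 4.3.3 (lmFit and eBayes, 2-sided, no block), with Benjamini-Hochberg adjustment. The fit was also run on simulated arrays with independent normal errors. Those hold no difference in tissue content between arrays, so they give no check of the fit under such differences. The members and lists were chosen with earlier results of these data known. Beside the members, up to 4 genes of smallest p per list and the 5 nearest in pattern were named. Slc17a7, and genes named beyond these, were picked with their values in view. Alternatives changed the variance prior, array weights, normalisation, centring, dim-signal filter and row per symbol, added a replicate block, or left out single arrays. Promoter letters came from RefSeq tables. Figures used matplotlib 3.10.9 in Python 3.11.15.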

Additional observations from a re-analysis of the deposited data

How the results depend on the processing

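Of the 13 alternative settings, those of the variance prior, array weights, filter, replicate block and row per symbol could not change a member's difference. Quantile normalisation, median centring and leaving out single arrays could. Each measured member kept its direction under these. Cdkn1b lay between 0.07 and 0.90 and Phlda3 between -0.72 and -0.03 when single arrays were left out. Phlda3 and Cdkn2a had no value under the filter at the negative control median. Counts over all genes moved more. An adjusted p under 0.05 was reached by 0 to 2 genes when single arrays were left out, and the study's rule by 218 to 428, against 130 with all 4. The filter gave 942 genes at an unadjusted p under 0.05 and 56 by the study's rule. Other p53 targets with an unadjusted p under 0.05 numbered 1 to 5 higher and 0 to 3 lower without single arrays, 5 higher with an intensity trend and 0 lower with all rows in the variance prior, against 3 and 3. Where that leaves a group with 1 array, the fit takes its spread from the other group. The labels number replicates alike in both groups but do not pair them, and deviations of same-numbered arrays correlated at -0.0032. With the replicate block, 130 genes met the study's rule, and 3 targets were higher and 2 lower. The number of arrays limits the precision. So do signals near those of negative controls for Phlda3, Cdkn2a, proliferation genes and most cell death targets and senescence and secreted factors.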
